A study of Rattus norvegicus with 10 samples.

Results

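Cytosolic ribosomal proteins are the protein part of the ribosome outside mitochondria. They were taken from the array annotation as every probe set with a single gene symbol that begins with Rpl (large subunit) or Rps (small subunit) followed by a digit, together with Rplp0, Rplp1, Rplp2 and Rpsa where measured. S6 kinases, whose symbols begin with Rps6k, were left out, as were pseudogenes and loci without a gene name. This gave 48 genes with 55 probe sets out of 14217 genes with a single symbol on the array. Of the 48 genes, 33 belong to the large and 15 to the small subunit, and 6 had more than 1 probe set. The probe set with the highest mean over the 10 arrays stood for each gene. A further 36 probe sets that carry several symbols, at least 1 of them ribosomal, are described apart, since their signal cannot be assigned to 1 gene.

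The RNA came from mammary tumours of female Sprague-Dawley rats. All animals had received a single oral dose of 100 mg/kg of the carcinogen 7,12-dimethylbenz(alpha)anthracene (DMBA), so both groups are DMBA tumours, and 5 tumours of histological grade II were each measured at 2 moments. The basal sample was an untreated Trucut needle biopsy (0.7 cm by 2.5 mm) at 12 weeks of age, when the tumour had reached 2 cm3. The final sample was taken at 19 weeks, in the 7th week after the biopsy, after 6 weeks of gavage with hydroxytyrosol, a phenol of olive oil, at 0.5 mg/kg on 5 days of each week. Later tumours without hydroxytyrosol were not analysed here, so treatment, age, tumour growth and the way of sampling cannot be told apart. The tumours are named by their labels: 66D2, 67D3, 45D3, 49I1 and 51I1. In bulk tumour RNA, fewer cells of a type and less RNA per cell cannot be told apart either.

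A ribosome carries each of its proteins once, with the acidic stalk proteins as the main exception, so ribosomal protein genes are transcribed at high and closely matched levels in growing cells. Their messages begin with a C and an uninterrupted stretch of pyrimidines, the 5′ terminal oligopyrimidine (TOP) motif. Through it the mTORC1 kinase, by way of the RNA-binding protein Larp1, controls their translation more than their abundance. In mammary epithelium and in tumours, ribosome production is known to follow growth signals such as those of the Myc transcription factor. Several proteins also have roles outside the ribosome: free Rpl5 and Rpl11 bind Mdm2 and thereby stabilise p53.

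The start regions of some genes whose signals are described further on were searched for a pyrimidine stretch, which the choice of genes did not use. Each window runs from 20 bases before to 20 bases after the annotated start in the RefSeq promoter table (build GRCr8), read 5′ to 3′ on the gene's strand. Capitals mark the longest run of C and T that begins with C, where it has at least 5 letters.
Rps23: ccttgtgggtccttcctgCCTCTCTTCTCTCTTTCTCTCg
Rpl34: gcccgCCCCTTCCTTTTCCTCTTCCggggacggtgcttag
Rpl22: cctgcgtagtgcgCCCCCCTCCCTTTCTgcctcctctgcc
Rpl23: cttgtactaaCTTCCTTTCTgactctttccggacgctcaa
Rps24: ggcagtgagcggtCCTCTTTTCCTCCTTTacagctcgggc
Rplp0: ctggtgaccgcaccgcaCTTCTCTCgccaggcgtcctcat
Rps13: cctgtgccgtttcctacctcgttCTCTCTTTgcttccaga
Rpl39: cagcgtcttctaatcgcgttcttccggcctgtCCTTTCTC
Rpl3: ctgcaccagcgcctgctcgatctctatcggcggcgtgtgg
Rpl3l: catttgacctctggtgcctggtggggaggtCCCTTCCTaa
Rpl26l1: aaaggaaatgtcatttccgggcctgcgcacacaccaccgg
Rps27l: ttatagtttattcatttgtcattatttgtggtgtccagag

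In GRCr8 these windows lie at chr2:23814497-23814536 (plus strand) for Rps23, chr2:221962264-221962303 (minus) for Rpl34, chr5:168117941-168117980 (plus) for Rpl22, chr10:83272165-83272204 (minus) for Rpl23 and chr16:96497-96536 (plus) for Rps24. Those of Rplp0, Rps13, Rpl39 and Rpl3 lie at chr12:46718371-46718410, chr1:180009641-180009680, chrX:121195877-121195916 and chr7:113507971-113508010, all on the minus strand. The paralogs Rpl3l, Rpl26l1 and Rps27l start within chr10:14258426-14258465 (plus), chr10:17029009-17029048 (minus) and chr8:76443638-76443677 (plus). The run reaches 21 letters in Rps23 and 20 in Rpl34, against 15 in Rpl22, 10 in Rpl23, 16 in Rps24 and 8 in Rplp0. Rpl3, Rpl26l1 and Rps27l have no run of 5 letters in the window. A marked run lies near the annotated start and need not be a TOP motif. That of Rpl23 ends before the start. Counted from the start, the run begins at base 4 in Rps13, 11 in Rpl3l and 13 in Rpl39, where it meets the edge of the window.

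A promoter entry was found for 43 of the 48 genes. Among the 34 of them with bright probe sets (defined in the next paragraphs), 28 had a run of at least 5 letters (82.4%), against 44.1% of 21842 protein-coding promoters. A run of at least 8 letters stood in 20 of the 34 (58.8%), against 11.8% of coding promoters, and the median longest run was 10.5 letters against 4. The motif CCGGAAG, the letters read by GABP and other ETS factors, was present on either strand of the 300-base promoter in 7 of the 34 (20.6%), against 10.7% of coding promoters. The Sp1 motif GGGCGG, searched on both strands as well, was present in 21 of the 34 (61.8%), against 41.8%. Read on the other strand, CCGGAAG begins with pyrimidines and GGGCGG ends with them, so both motifs can overlap a TOP stretch. A match describes letters in a window and is not a measured binding site, and the annotated start of a gene can differ from the start used in these tumours.

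Signals were deposited after Robust Multichip Average (RMA) normalisation, read here as log2 values, in which 1 unit is a doubling. RMA forces every array onto the same distribution and hides a shift in total RNA. Luminal epithelial markers, which define the labelled tissue, were measurable for 11 of 12 genes, and their summed level ran from 15.04 to 15.57 in basal and from 15.16 to 15.67 in final arrays. The hexokinase control has probes at both ends of its message, and its 3′ excess over 5′ grows with RNA degradation or short labelling products. This excess ran from 0.97 to 2.36 in basal and from 0.89 to 1.10 in final arrays, with the highest values in the biopsies of 45D3 and 67D3. From basal to final it moved by -1.47 in 45D3 and -1.02 in 67D3. The same excess of the GAPDH control moved by -0.45 and 0.0088, and that of beta-actin by -0.55 and -0.054. In the remaining tumours GAPDH and beta-actin moved by -0.21 to 0.20. Skeletal muscle markers stood apart as well: their summed level ran from 10.61 to 11.49 in basal arrays and from 10.88 to 15.69 in final arrays.

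The members formed a bright majority and a dim remainder. In 38 of the 48 genes the mean signal was between 12.58 and 13.94, and the next gene below, Rpl7l1, had a mean of 10.04. The line between them, at 12, was set after the signals were seen. The bright genes of the large subunit were Rpl3, Rpl4, Rpl5, Rpl6, Rpl7, Rpl7a, Rpl11, Rpl12, Rpl13a, Rpl14, Rpl18, Rpl19, Rpl21, Rpl22, Rpl23, Rpl23a, Rpl24, Rpl26, Rpl27, Rpl27a, Rpl34, Rpl35, Rpl35a, Rpl37a, Rpl41 and Rplp0. Those of the small subunit were Rps3, Rps3a, Rps6, Rps9, Rps15, Rps15a, Rps16, Rps23, Rps24, Rps28, Rps29 and Rpsa. The dim 10 were Rpl7l1, Rps27l, Rpl39, Rps4y2, Rpl26l1 and Rps13, which were tested, and Rpl28, Rpl30, Rpl3l and Rpl39l1, whose means lay below 5.14, the level under which the dimmest 40% of probe sets were not tested. Rpl28 and Rpl30 are also named, with other symbols, by bright probe sets with means of 13.54 (Rpl28), 13.16 and 13.29 (Rpl30), so their dim sets do not stand for all of their signal. Signals of different probe sets depend on their sequences and are not compared as abundances. Array signals can also flatten near the top of the scale, where the highest mean of any probe set was 14.08; this was not tested.

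The study asked how the tumours differed after hydroxytyrosol from their own biopsies. The ribosomal protein genes differed by little and mostly in 1 direction: in 39 of the 44 tested genes the final signal was on average lower, with a median difference of -0.044 on the log2 scale. Over all 10839 genes tested, the median difference was -0.0095, and 52.1% of genes were lower. None of the 44 passed the test: with limma, a linear model with the tumour as a block, 0 members had a Benjamini-Hochberg adjusted p under 0.05, and the background over all genes was 0%. The adjusted p-values of the members from limma lay between 0.579 and 0.999, and the smallest over all probe sets was 0.413. At an unadjusted limma p under 0.05, 2 members were lower, against a background of 4.36% of genes, and 0 were higher, against 2.78%. Of these 2, Rps13 was tested only through its basal arrays, as described further on. Under the paired test named in the study's methods, 5 members were lower at the same unadjusted threshold, against a background of 4.75%, 0 were higher, against 2.75%, and 0 remained after adjustment. When limma let the spread follow the intensity, 2 were lower, against 4.53%, and 0 higher, against 3.17%.

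Among the 38 bright genes the mean difference ran from -0.11 to 0.016, with a median of -0.043, and 35 were lower. The 95% limma intervals of single bright genes reached from -0.31 to 0.23. Limma moves the spread of each gene toward that of all tested probe sets, which is wider than that of the bright members. For Rps23 the limma SE was 0.082, against 0.043 with the intensity trend and 0.011 from its own 5 differences. No bright member passed adjustment with limma, the trend or the paired test. The 26 large subunit genes had a median of -0.043 and the 12 small subunit genes a median of -0.044; the difference between subunits was not tested. The 32 bright probe sets with several symbols, at least 1 of them ribosomal, had a median of -0.051 with 30 lower. The 214 other probe sets with a mean of at least 12 had a median of -0.019 with 125 lower. These 214 were not matched to the members in brightness. Among the 100 brightest probe sets were 35 of the 38 bright members and 27 ribosomal probe sets with several symbols.

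In the tumours 66D2, 67D3, 45D3, 49I1 and 51I1, in this order, the median of the bright genes was -0.022, -0.11, 0.011, -0.051 and -0.029. The corresponding median over all genes tested was 0.026, -0.022, 0.041, -0.052 and -0.078. The ribosomal median was thus below that of all genes in 66D2, 67D3 and 45D3, close to it in 49I1, and above it in 51I1. The 214 other probe sets with a mean of at least 12, not matched in brightness, had medians of -0.012, -0.077, 0.058, -0.037 and -0.0040. The ribosomal median was below theirs in all 5 tumours, and they too were lowest in 67D3. The number of bright genes lower in the final array was 24, 34, 17, 32 and 32 of 38, where 46.2%, 52.8%, 45.8%, 57.3% and 59.2% of all genes were lower.

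**Figure D1:**
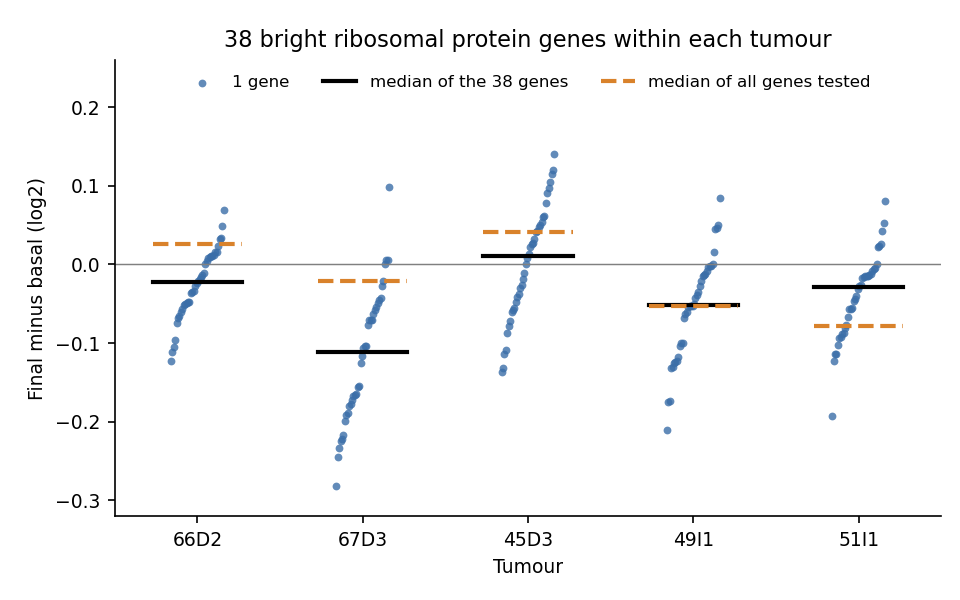
Final minus basal log2 signal of each of the 38 bright ribosomal protein genes (points, sorted within a tumour) in the 5 tumours, with their median (black line) and the median over all genes tested (dashed line). The points lie lowest in 67D3, where the median is -0.11, and are spread around 0 in 45D3, where it is 0.011.

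Tumour 67D3 carried the widest shift. In its final array, 37 of the 38 bright genes lay below their own mean over the 10 arrays, by a median of -0.13, and 28 had their lowest final signal there. The final array of 49I1 had 35 of 38 below their own mean, by a median of only -0.039. These counts were not made for other probe sets, so a shift of the whole array was not tested. Against its own biopsy, 67D3 was lower in 144 of the 214 other probe sets with a mean of at least 12, with a median of -0.077. For the bright genes these values were 34 of 38 and -0.11. The final array of 67D3 also had the highest muscle markers: the median difference of 11 muscle markers was 6.82 there, 4.37 in 66D2 and 2.64 in 49I1, but 0.35 in 45D3 and 0.21 in 51I1. When the median signal of the 11 muscle markers in each array was added to the limma model, the median over the 44 tested members was -0.0089 and 27 were lower. Without tumour 67D3 the median was -0.029, with 37 lower. The part of the muscle content in the ribosomal differences was not tested further.

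The bright genes varied far less between tumours than other genes. The SD of the difference across the 5 tumours had a median of 0.066 over the 38 bright members. It was 0.171 over the 214 other probe sets with a mean of at least 12 and 0.285 over all genes tested. Those 214 were not matched to the members in brightness, and a flattening of the brightest signals was not tested. Rps23, Rpl7a and Rpl37a had the smallest SDs among tested members, at 0.025, 0.037 and 0.037. The largest belonged to the dim Rps13 (0.81), Rps4y2 (0.64) and Rpl39 (0.37).

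Lower signals in all 5 tumours were seen for 7 bright members, against 5.27% of all genes, and higher signals in all 5 for 0 members, against 3.52%. They were Rpl22, Rpl23, Rpl34, Rpl35a, Rps23, Rps24 and Rps29. Of these, Rps29 was named after its values were seen, and Rpl35a differed by only -0.0001 in 51I1. Rps23 sits at the decoding centre of the small subunit. Its basal signals were 13.76, 13.80, 13.87, 13.81 and 13.86, with the tumours in the same order. In their final arrays it was 13.69, 13.73, 13.76, 13.69 and 13.76. Each final array was lower than its own biopsy by 0.07 to 0.12, although the groups touched at 13.76. The difference was -0.094 ± 0.025 (SD, n = 5), with a limma SE of 0.082 and an adjusted p of 0.784. The methods' paired test gave it an unadjusted p of 0.0011 and an adjusted p of 0.566.

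Groups without overlap were found for 2 members, Rpl23 and Rpl34, against 1.2% of all genes. Rpl23 is a large subunit protein that, like Rpl5 and Rpl11, is known to bind Mdm2. In the basal arrays of 66D2, 67D3, 45D3, 49I1 and 51I1 it had signals of 13.60, 13.54, 13.57, 13.51 and 13.57. In the final arrays it had 13.49, 13.34, 13.49, 13.46 and 13.47, so that the highest final signal stayed just under the lowest basal one, and 67D3 was lowest. The mean difference was -0.11 ± 0.058 (SD, n = 5; limma SE 0.084, adjusted p 0.765).

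Rpl34, a protein of the large subunit, had basal signals of 13.59, 13.52, 13.58, 13.54 and 13.52 in the same order of tumours. Its final signals were 13.47, 13.37, 13.49, 13.50 and 13.46. All final arrays were below all basal arrays, again with 67D3 lowest. The mean difference was -0.090 ± 0.046 (SD, n = 5; limma SE 0.083, adjusted p 0.795).

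Rpl22, which binds RNA and is needed for the development of alpha-beta T cells in mice, had the largest mean difference of the bright members. Its basal signals were 13.12, 13.18, 13.26, 13.31 and 13.33 and its final signals 13.06, 13.01, 13.24, 13.13 and 13.20. Every final array was below its own biopsy, but the groups overlapped, because the tumours differed among themselves. The difference was -0.11 ± 0.070 (SD, n = 5; limma SE 0.085, adjusted p 0.760). Rpl22, Rpl23, Rpl34, Rps23 and the dim Rpl39 were the 5 genes under 0.05 in the methods' paired test. After adjustment over all tested probe sets, that test gave them p-values from 0.566 (Rps23) to 0.659 (Rpl39).

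**Figure D2:**
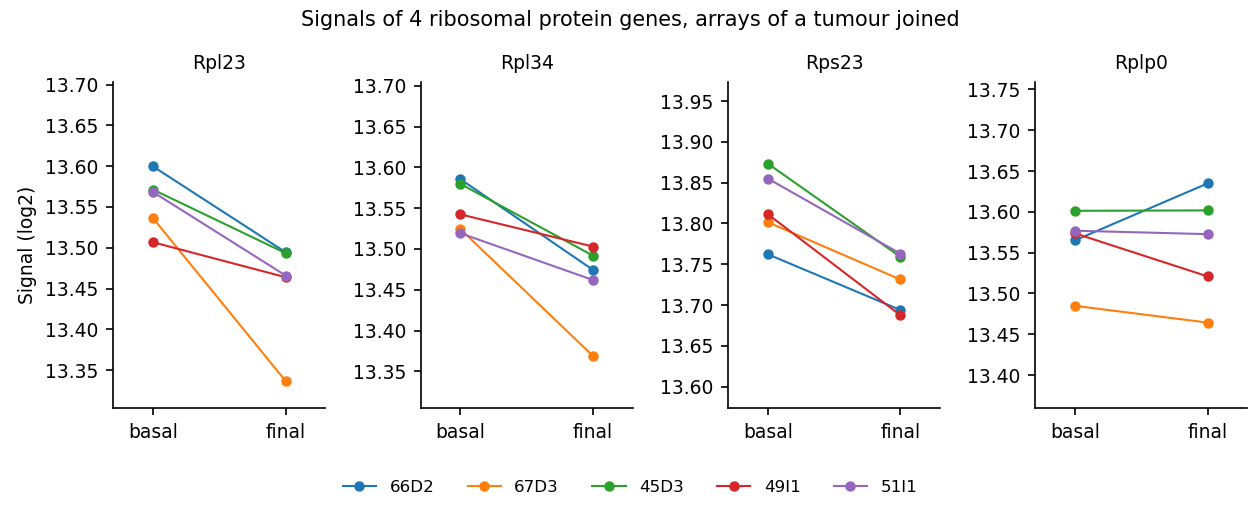
Log2 signals of Rpl23, Rpl34, Rps23 and Rplp0 in basal and final arrays, with the arrays of 1 tumour joined; each axis spans 0.4 log2 units around the gene's mean. Rpl23, Rpl34 and Rps23 are lower in the final array in all 5 tumours, whereas Rplp0 is lower in 3 and higher in 2.

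Among the other members with the smallest p, Rps3, a small subunit protein that also acts in DNA repair, averaged 13.55 ± 0.056 (SD, n = 5) before and 13.46 ± 0.17 (SD, n = 5) after treatment. Its final signals were 13.56, 13.24, 13.66, 13.34 and 13.52, with 67D3 and 49I1 low and 45D3 above its own biopsy. Rpl35a and Rps24, both mutated in Diamond-Blackfan anaemia, had differences of -0.087 ± 0.12 and -0.084 ± 0.080 (SD, n = 5), with -0.28 and -0.22 in 67D3. In the remaining tumours the differences of Rps24 lay between -0.061 and -0.032. Those of Rpl35a were -0.13 in 45D3, -0.011 in 66D2, -0.0086 in 49I1 and -0.0001 in 51I1.

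The following members, used as references or studied for functions of their own, had mean differences from -0.048 to -0.0014. Rpl22, Rpl23 and Rps3, described above, also have such functions, and their differences were larger. Rplp0, the base of the ribosomal stalk and a common reference gene, averaged 13.56 ± 0.044 (SD, n = 5) before and 13.56 ± 0.067 (SD, n = 5) after. Its difference was -0.0014, with a limma 95% interval from -0.20 to 0.20. Rps6, the protein that S6 kinases phosphorylate, differed by -0.023 ± 0.042 (SD, n = 5), lower in 4 of 5 tumours. Rpl5 and Rpl11, the partners of 5S rRNA that bind Mdm2, differed by -0.046 ± 0.091 and -0.048 ± 0.048 (SD, n = 5). In 67D3 Rpl5 was lower by 0.19 and Rpl11 by 0.10, the largest steps of each gene. Rpsa, which doubles as a laminin receptor, differed by -0.019 ± 0.12 (SD, n = 5), with 49I1 lower by 0.21 and 45D3 higher by 0.097.

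Only 3 bright members had a higher mean after treatment. They were Rpl18 (0.016 ± 0.10), Rpl19 (0.013 ± 0.063) and Rpl3 (0.012 ± 0.057; SD, n = 5 for each), where Rpl3 lines the peptidyl transferase centre. Each was higher in 3 of 5 tumours, 45D3 among them. Centring the arrays on their medians turned these mean differences below 0.

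Both members with an unadjusted limma p under 0.05 were dim; dim and bright members were not tested against each other. Rpl39, a short protein of the nascent chain exit tunnel, had signals of 6.78, 7.31, 6.64, 6.45 and 6.60 in the basal and 6.24, 6.37, 6.04, 6.45 and 6.38 in the final arrays of 66D2, 67D3, 45D3, 49I1 and 51I1. All tumours but 49I1 were lower in the final array, and the groups overlapped. The difference was -0.46 (limma SE 0.15, unadjusted p 0.020, adjusted p 0.579), and its 95% interval ran from -0.82 to -0.098.

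Rps13, which lies in the body of the small subunit near the contact with the large one, had basal signals of 5.62, 6.64, 5.65, 4.88 and 6.15. Its final signals were 4.82, 5.15, 4.68, 5.43 and 4.79. The final array was lower in 4 tumours by 0.79 to 1.49 and higher in 49I1 by 0.55. The mean difference was -0.81 (limma SE 0.29, unadjusted p 0.030, adjusted p 0.592). The final mean of 4.98 lay under the level of 5.14 for testing and the basal mean of 5.79 above it, so this probe set was tested only through its basal arrays, and the size of the step is uncertain. A second, bright probe set, annotated to Rps13 and 3 of its copies, averaged 13.40 ± 0.020 (SD, n = 5) before and 13.30 ± 0.090 (SD, n = 5) after treatment. Its differences were -0.064, -0.26, -0.022, -0.066 and -0.087, lower in all 5 tumours but far from the step of the dim probe set.

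Rps24 had both a bright and a dim probe set. The second Rps24 probe set, with a mean of 7.81, had basal signals of 8.17, 8.95, 9.06, 7.64 and 7.96 and final signals of 6.36, 7.62, 7.53, 7.59 and 7.23. It was lower in all 5 tumours, by 1.80 in 66D2, by 1.53 in 45D3, by 1.32 in 67D3 and by 0.74 in 51I1, but by only 0.056 in 49I1. Its difference of -1.09 (limma SE 0.26, unadjusted p 0.004, adjusted p 0.548) stood beside -0.084 for the bright probe set of Rps24. A pair of probe sets annotated to copies of Rpl37, with means of 13.54 and 5.45, differed by -0.030 and by -1.08. The dim one, at 5.99 before and 4.91 after, was likewise tested only through its basal arrays, and its step is given as a description. There too 49I1 was the exception, at 0.18. These pairs were singled out after their values were seen.

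**Figure D3:**
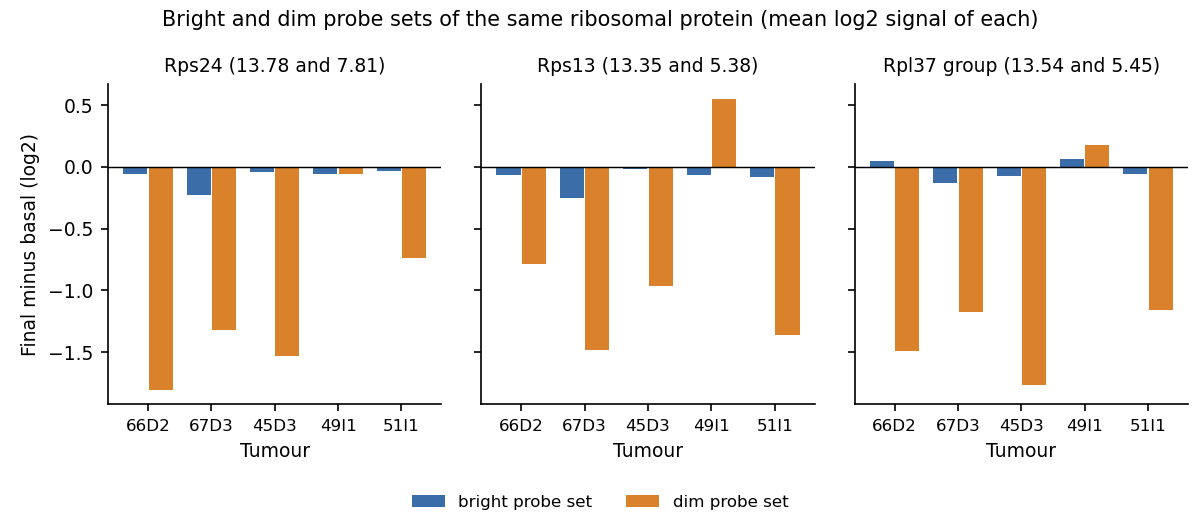
Final minus basal log2 signal by tumour for the bright and the dim probe set of Rps24, of Rps13 and of the Rpl37 copies, with both mean signals above each panel. The dim sets are lower by 0.74 to 1.80 in 4 tumours and lie between -0.056 and 0.55 in 49I1, while the bright sets stay between -0.26 and 0.066.

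Not all genes showed this contrast. The dim second probe sets of Rpl3, Rpl7 and Rpl14 differed by -0.042, 0.088 and 0.0035, beside 0.012, -0.049 and -0.080 for their bright ones. Of the dim members, Rps27l, Rpl7l1, Rpl28, Rpl30 and Rpl39l1 differed by 0.00030, -0.086, 0.030, 0.049 and -0.018. The second Rpl14 set (mean 4.40), Rpl28, Rpl30 and Rpl39l1 lay below 5.14, with little room for a lower signal. Rpl39, Rpl26l1, Rps4y2 and Rpl3l differed by -0.46, -0.16, 0.39 and 1.25. A probe set naming Rpl8 and its copies, with a mean of 10.56, differed by -0.22, beside -0.042 for a brighter one. The hexokinase 3′ excess moved by -1.02 in 67D3 and by -1.47 in 45D3, but by 0.11 in 66D2, -0.27 in 51I1 and -0.09 in 49I1. With this measure in the limma model, the difference was -0.90 for the dim Rps24 probe set, -0.52 for Rps13 and -0.28 for Rpl39; with the muscle markers in the model it was -0.94, -0.75 and -0.25. Neither Rps13 nor Rpl39 had an unadjusted p under 0.05 in those models. Which transcripts the dim probe sets match was not examined here. In RefSeq the 48 genes together have 469 pseudogene copies, with a median of 10.5 per gene and 25 for Rpsa, the most of any member. Cross-hybridisation between a gene and its copies was not tested.

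Paralogs, the copies with restricted or regulatory expression, were 5 in number by their names, and Rps4y2 stands beside them. Rpl3l replaces Rpl3 in skeletal muscle and heart. Its basal signals lay between 3.85 and 4.09 in all 5 tumours. Its final signals were 6.03, 7.94, 4.05, 4.37 and 3.78 in 66D2, 67D3, 45D3, 49I1 and 51I1. The step was 2.00 in 66D2 and 3.96 in 67D3 and small elsewhere, with overlapping groups. Because its mean signal of 4.61 lay under the filter it was not tested; without the filter limma gave a difference of 1.25 with an adjusted p of 0.703. The tumours in which Rpl3l was high were those with the most muscle signal: the muscle markers were higher by 4.37 in 66D2 and by 6.82 in 67D3. Of 13 muscle markers on the array 11 were tested, and all 11 had a higher mean. At an unadjusted limma p under 0.05, 8 were higher, against 2.78% of all genes. Rpl3 itself stayed between 13.73 and 13.84 in all 10 arrays.

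**Figure D4:**
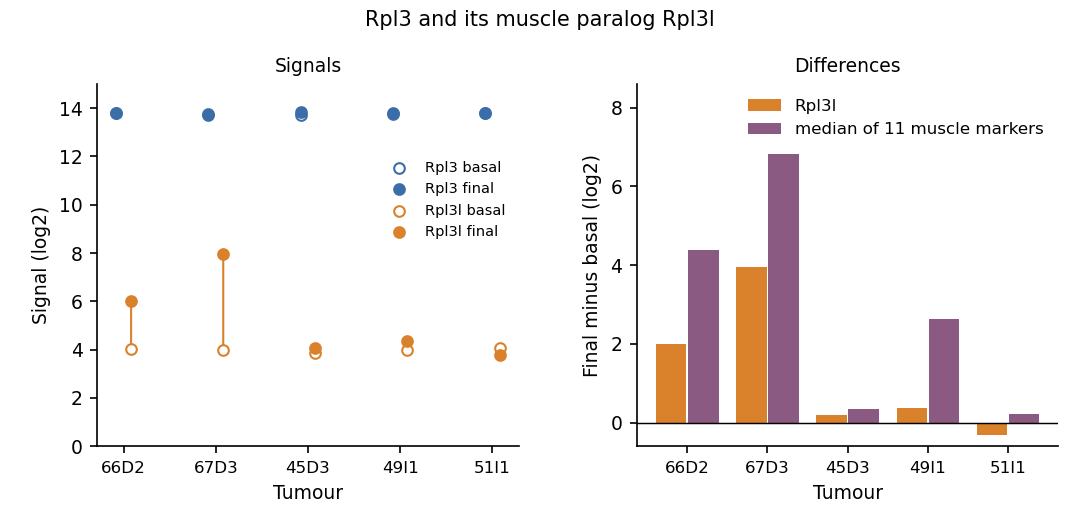
Log2 signals of Rpl3 and Rpl3l in basal (open) and final (filled) arrays of each tumour, left, and final minus basal for Rpl3l beside the median of 11 skeletal muscle markers, right. Rpl3l is higher by 2.00 in 66D2 and 3.96 in 67D3, where the muscle median is higher by 4.37 and 6.82, and Rpl3 stays within 13.73 to 13.84.

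Rps27l, a paralog of Rps27 that p53 induces, had a difference of 0.00030 ± 0.12 (SD, n = 5), from -0.18 in 66D2 to 0.16 in 67D3. Rpl26l1 differed by -0.16 ± 0.16 (SD, n = 5; limma adjusted p 0.702), lower in all tumours except 45D3. Rpl7l1, a paralog of Rpl7, differed by -0.086 ± 0.23 (SD, n = 5), likewise with 45D3 higher, by 0.31. Rpl39l1, a copy of Rpl39, had a mean of 3.49 and was not tested, at -0.018 ± 0.23 (SD, n = 5). Rps4y2, a member of the Rps4 family that lies on chromosome 4 in GRCr8, had basal signals of 4.29, 5.33, 5.57, 6.25 and 7.13 and final signals of 5.77, 5.76, 5.41, 6.34 and 7.21. Tumour 51I1 was highest and 49I1 next in both groups, and 66D2 alone was higher by 1.48. The difference was 0.39 ± 0.64 (SD, n = 5; limma adjusted p 0.704).

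The other genes of the translation machinery were read from lists, with no list tested as a whole. Of 37 tested genes of ribosome biogenesis and RNA polymerase I, which make and assemble the rRNA, 36 had a lower mean in final arrays, with a median of -0.21. At an unadjusted limma p under 0.05, 12 were lower, against the background of 4.36%, and 0 were higher; 0 passed adjustment. Taf1d, a subunit of the selectivity factor of RNA polymerase I, had 8.38 ± 0.25 (SD, n = 5) before and 7.53 ± 0.24 (SD, n = 5) after, lower in all 5 tumours (difference -0.85, limma adjusted p 0.413). Rrp12, which helps to export pre-ribosomal subunits, differed by -0.41 (limma adjusted p 0.548) and was also lower in all 5. Taf1b was the single gene with a higher mean, by 0.033.

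The biogenesis median was -0.39, -0.20, 0.14, -0.27 and -0.41 in the tumours from 66D2 to 51I1, ordered as before. Only 45D3 was above 0, as it was for the bright ribosomal protein genes. The count of 12 was 23 without 45D3, where 10.7% of all genes were lower at this threshold. It was 6 without 66D2, 49I1 or 51I1 and 7 without 67D3, where 2.09% to 4.06% of all genes were. With the hexokinase measure in the model it was 22, against 6.7% of all genes, and with the muscle markers 3, against 2.09%. The proliferation markers had medians of -0.33, -1.08, 0.71, -0.83 and -0.29 in the same order of tumours, lower on average in 18 of 18 genes with 1 at an unadjusted limma p under 0.05, against 4.36% of genes, and 16 without 45D3, against 10.7%. Fibroblast markers were higher on average in 10 of 10 genes, with medians of 1.23 in 67D3, 0.57 in 49I1 and 0.98 in 51I1, a higher one in 66D2 and -1.17 in 45D3, so that 45D3 had the opposite sign here too. Their summed level ran from 13.96 to 15.21 in basal and from 13.90 to 16.01 in final arrays. Adipocyte markers were higher in 7 of 8 tested genes (median 0.73), with a median of -0.85 in 45D3. T and NK cell markers were higher in 9 of 9 (median 0.43), with medians of -0.99 in 67D3 and -0.87 in 45D3. The part of proliferation, RNA quality and these cell contents in the ribosomal and biogenesis values was not tested further.

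The remaining lists had medians closer to 0. Of 13 tested elongation factors and other TOP messages, 13 had a lower mean, with a median of -0.06 and 0 at an unadjusted limma p under 0.05; Nap1l1 and Hnrnpa1 differed by -0.22 and -0.27. Without 45D3, 2 of the 13 passed the unadjusted threshold, against 10.7% of all genes, and the median was -0.11. Of 25 initiation factors 24 were lower, with a median of -0.10 and 1 at the unadjusted threshold, Eif5b (-0.23), which joins the subunits. Eif3a followed at -0.20 and Eif4g1 was at 0.025. Without 45D3 the count of initiation factors was 9, against 10.7% of all genes, and the median -0.19. With the hexokinase measure the count was 4, against 6.7% of all genes, and the median -0.26. Rack1, a scaffold protein on the small subunit, differed by -0.069. Of 73 mitochondrial ribosomal protein genes, whose products form a separate ribosome, 52 were lower with a median of -0.054 and 1 at the unadjusted threshold, Mrps5 (-0.25). Mrps6 had the next smallest p among the lower genes (-0.25), and Mrps28 and Mrpl34 led the higher ones (0.19 and 0.093). Without 45D3 the mitochondrial count was 12 of 73, against 10.7% of all genes, and the median -0.16. The median was 0.00053 without 49I1 and 0.018 without 51I1. No member of these lists passed adjustment in the model with all tumours.

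Regulators were read from a pair of lists. In the mTORC1 and S6 kinase list 11 of 19 tested genes were lower and 8 higher, with a median of -0.039. Rhebl1, a GTPase related to the mTORC1 activator Rheb, was lower in all 5 tumours at -0.73 (limma unadjusted p 0.001, adjusted p 0.413). Without 45D3, 4 genes of the list were lower at the unadjusted threshold, against 10.7% of all genes. Deptor, an mTOR inhibitor, differed by -0.34, Sesn1 by 0.25 and Rps6ka3 by 0.14. Among 10 transcription factors linked to these genes, 8 were lower, with a median of -0.078 that was below 0 in each tumour, and 0 passed the unadjusted threshold. Myc differed by -0.25, with lower signals in 3 of 5 tumours, Tbpl1 by -0.21, Sp1 by 0.15 and Gabpb1, a subunit of GABP, by 0.10.

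**Figure D5:**
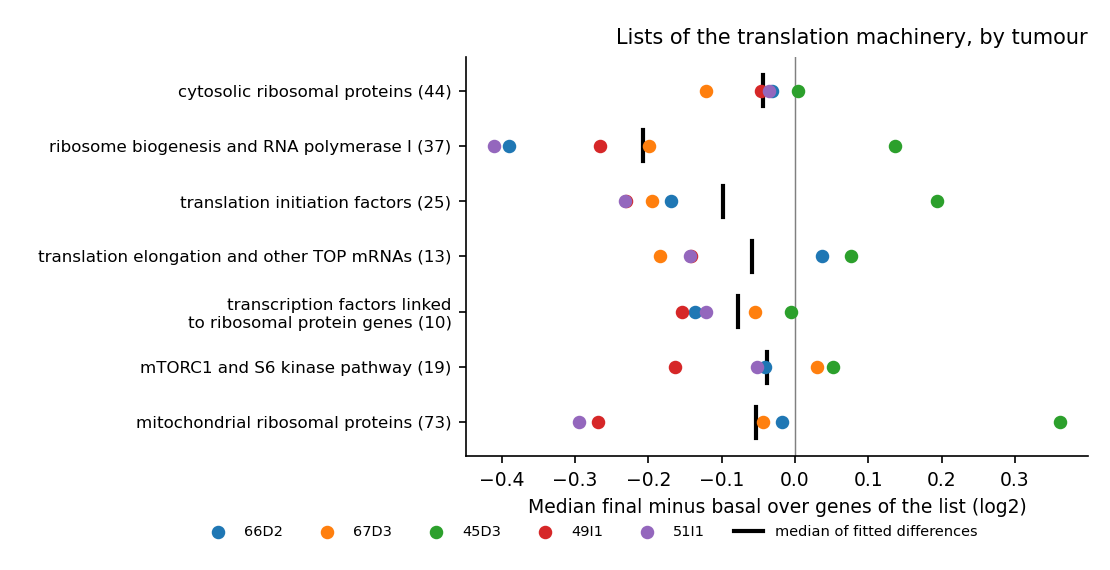
Median final minus basal log2 difference over the tested genes of each list (number in parentheses), per tumour (coloured points) and as the median of the fitted differences (black line). The cytosolic ribosomal proteins stay between -0.12 and 0.0042, the biogenesis list between -0.41 and 0.14, and 45D3 is the rightmost point of every list.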

How the data were processed

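RNA of 10 tumour samples was hybridised to Affymetrix rat genome arrays after preservation in RNAlater and RNeasy extraction, per the labels. The authors normalised the deposited values of 31099 probe sets by RMA, per the series' design text, and these were read as log2 signals because of their range; no label names a scale. The study's own test was a paired test in GeneSpring GX 7.3. No RMA version is named. Among 31042 probe sets other than controls, 20826 had 1 symbol in the annotation of 2016, 436 several and 9780 none. The dimmest 40% (mean below 5.14) were left out, which kept 18625 probe sets of 10839 genes, and 44 of the 48 members.

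The model was lmFit and eBayes of limma 3.58.1 under R 4.3.3 (4 residual and 2.64 prior degrees of freedom; statmod 1.5.0 for a random block), with Benjamini-Hochberg adjustment over all tested probe sets, after tests on simulated data. Tumour was a block, since its 2 samples carry 1 identifier in the labels; deviations of these arrays from the group means correlated at 0.72, 0.47, -0.16, 0.29 and 0.17 in 66D2, 67D3, 45D3, 49I1 and 51I1, across probe sets, which are not replicates. Named members are the 10 lower ones with the smallest p, all 5 tested members with a higher mean, and every paralog. Rps6, Rplp0, Rpl3, Rpl22, Rpl5, Rpl11 and Rpsa were named too, as were the 3 with the largest and the 3 with the smallest SDs. Lists give up to 4 each. The members and lists were chosen with earlier results of these data known. The number of arrays limits the precision. Promoters come from RefSeq (GRCr8).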

Additional observations from a re-analysis of the deposited data

Results flagged for a closer look

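Among the 25 named members, 50 groups of 5 arrays were screened for an array whose gap to the nearest other took up most of the group's range (Dixon's test at 95%), and 4 were found, where chance gives about 1 in 20 groups. In the final array of 67D3, Rpl23 had a signal of 13.34 while the other 4 final arrays lay between 13.46 and 13.49. In the same array Rps24 had 13.54, with the others between 13.74 and 13.82. Rpl19 stood apart upward in the final array of 45D3, at 13.77 against 13.62 to 13.66. Rpl5 was low in the basal array of 49I1, at 13.59 against 13.66 to 13.68.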

How the results depend on the processing

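In all 18 alternative settings 0 members passed the adjusted threshold, and the median over the tested members stayed below 0, from -0.062 (arrays centred on their medians) to -0.0089 (muscle covariate). The count of members lower at an unadjusted p under 0.05 was 2 in the model used, against 4.36% of all genes. Of these 2, Rps13 was tested only through its basal arrays. The count was 0 with the dimmest 60% left out, which removes both genes. It was 0 with the hexokinase covariate, against 6.7% of all genes, and 0 with the muscle covariate, against 2.09%. With the methods' t-test it was 5, against 4.75%. When 1 tumour was left out it was 0 to 2, against 2.09% to 10.7%. The mean of all probe sets per gene gave 3, which added Rps24 (-0.59, limma unadjusted p 0.006, adjusted p 0.577, the lowest among its settings, which reach 0.99996). The count of higher members was 0, and 1 with array weights (Rps4y2), where 3254 of the 18625 probe sets had an unadjusted p under 0.05 in either direction. Over all genes, 0 probe sets passed the adjusted limma threshold, 2 with the hexokinase covariate. Without the tumour pairing (no replicate block) the median was -0.044 and 2 members were lower, so the pairing changed no count of members; 0 probe sets passed, and 1001 had an unadjusted p under 0.05. The limma model with an intensity trend, added after the data were seen, gave 2 lower members. Of 410 gene and setting pairs, 35 changed sign, all for genes that passed no threshold: Rpl18, Rpl19, Rpl3, Rpl5, Rpl7a, Rpl7l1, Rplp0, Rps27l, Rps3, Rps6 and Rpsa. The causes were not tested.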
